A study of Bos indicus with 12 samples.

Results

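S100G (row ENSBTAG00000017020 of the count table) encodes calbindin-D9k, and its transcript was followed here through endometrium collected by biopsy on D 6 of a synchronized cycle in 12 multiparous, suckled, anestrous Nelore (Bos indicus) cows. It is 1 of 24616 gene IDs in the table and 1 of the 14814 that passed the filter on low and variable counts. The row was chosen because of its values in the ECP and CON cows, so the contrast of these groups is given below as a description without a test. The tests concern later pregnancy, progesterone (P4) and the other genes. Earlier results of these data were known when the row was chosen, and the genes with a symbol were picked by the study on the same contrast.

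Of the 12 cows, 6 had received 1 mg of estradiol cypionate, an ester of estradiol with prolonged action, when their P4 insert was removed (ECP), and 6 had not received it (CON). All cows of both groups had been given 2 mg of estradiol benzoate together with an intravaginal P4 insert, which stayed in place for 8 d, then cloprostenol at its removal and 10 µg of buserelin acetate 48 h later, followed at once by timed artificial insemination (TAI). D 6 was counted from the buserelin injection. Each library was made from a different cow. For sequencing, the ECP cows were picked because they had shown estrus and the CON cows because they had not, so treatment and estrus cannot be told apart. According to the paper, the cows were also picked for similar follicle diameter at insert removal and similar plasma P4 at biopsy in both groups. Later pregnancy entered the choice too, so that each group held both outcomes, with 3 cows later found pregnant and 3 not. The P4 and pregnancy status that are compared with S100G below were thus partly set by selection.

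Calbindin-D9k is a small cytosolic protein of the S100 family that binds calcium through paired EF-hand motifs. In the intestine it takes part in the vitamin D-dependent passage of calcium across absorptive cells, where it buffers calcium between its entry at the apical membrane and its exit at the basolateral one. In the uterus of the rat the gene is known for its response to estrogen. Protein, promoter and mature transcript sequences of S100G were not used here.

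The depth left little counting error in the S100G values. The 12 libraries held between 8637917 and 15015055 counts. S100G took 3916, 4512, 5039, 7531, 3424 and 6886 raw counts in ECP cows B0646, C317, D160, E0952, E1010 and X156, against 2595, 3066, 2709, 2242, 2700 and 1881 in CON cows 1814, B1042, E0040, E0406, E0819 and X228. The counting error of a cow was therefore between 1.15% and 2.31% of its value. As a share of all counts of the library, S100G reached from 0.0320% to 0.0656% in ECP cows and from 0.0176% to 0.0245% in CON cows. The exact (Clopper-Pearson) 95% interval of the highest share, that of E0952, was 0.0641% to 0.0671%, which covers counting error only.

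Normalized counts, which are raw counts divided by a size factor of the library, gave the same picture. S100G had 7929 normalized counts in E0952, 6372 in X156, 4766 in E1010, 4090 in D160, 3961 in C317 and 3832 in B0646 among the ECP cows. The CON cows had 2908 in B1042, 2808 in E0040, 2675 in 1814, 2631 in E0819, 2081 in E0406 and 2065 in X228. The groups did not overlap, with B0646 as the lowest ECP cow 924 normalized counts, or 1.32-fold, above B1042 as the highest CON cow. Such a separation was found in 45 of 14814 genes, or 0.304% of those tested, and it is part of what chose the gene.

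**Figure D1:**
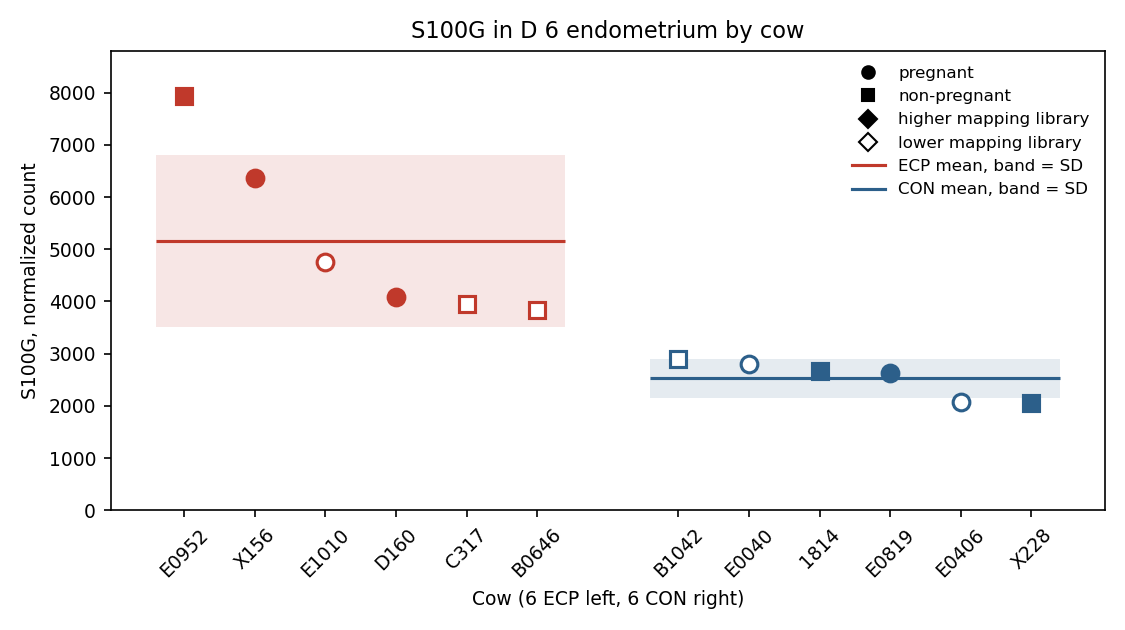
Normalized S100G count (vertical axis, linear from 0) of each cow, ECP cows on the left and CON cows on the right, each in falling order. Circles are cows later pregnant and squares cows not pregnant, filled symbols are higher mapping libraries and open symbols lower mapping libraries, and the line and band give the group mean and its SD (5158 ± 1652 in ECP, 2528 ± 366 in CON). The 6 ECP cows sit between 3832 and 7929, all above the CON cows at 2065 to 2908.

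Cows next to each other in this order could be told apart by counting error in 5 of 11 neighbouring pairs. The ratio of E0952 to X156 was 1.24 (95% counting interval 1.20 to 1.29), that of X156 to E1010 1.34 (1.28 to 1.39), and that of E1010 to D160 1.17 (1.12 to 1.22). The steps D160 to C317 and C317 to B0646, each of ratio 1.03, were within counting error. In the CON cows so was each step from B1042 down to E0819, and that of E0406 to X228, while E0819 lay 1.26-fold above E0406 (1.20 to 1.34). The intervals hold counting error only, so they do not cover differences that arise in the biopsy or the library.

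The ECP cows averaged 5158 ± 1652 normalized counts and the CON cows 2528 ± 366 (SD, n = 6 each), a ratio of means of 2.04. The medians, 4428 in ECP and 2653 in CON, stood in a ratio of 1.67, because E0952 and X156 lay far above the other ECP cows. Without E0952 the ECP mean was 4604 ± 1052 (SD, n = 5) and the ratio of means 1.82. On the log2 scale the fold change of the edgeR fit, ECP over CON, was 1.04 (SE 0.18), a description, since this contrast chose the gene. For scale, 84 of the 14814 genes (0.567%) had a log2 fold change at least as high, and the median size of the log2 fold change over all genes was 0.13. Of the 461 genes whose mean normalized count was at least that of S100G, S100G itself was the only 1 with a log2 fold change that high. The log2 gap between the lowest ECP cow and the highest CON cow, 0.40, was matched or passed by 2 genes, S100G included.

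Over all genes, edgeR's quasi-likelihood test called 0 genes between ECP and CON at the threshold of 0.10 on the adjusted p (Benjamini-Hochberg over all genes), with 1295 genes at an unadjusted p under 0.05. limma voom also called 0, with 1302 genes at an unadjusted p under 0.05. DESeq2 called 93 (0.628% of 14814), of which 54 (0.365%) were higher in ECP. These counts describe the whole table and lend nothing to S100G, which was chosen on this contrast.

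The ECP cows also differed more among themselves. Their coefficient of variation was 32.0%, against 14.5% in the CON cows, and the highest cow stood 2.07-fold above the lowest in ECP and 1.41-fold in CON. On the log2 scale the SD was 0.43 in ECP and 0.22 in CON, a ratio of 1.97, while the median gene had an SD of 0.25 in ECP and 0.27 in CON and a ratio of 0.96. A ratio of SDs at least that of S100G was found in 8.94% of genes. Without E0952 the coefficient of variation of the ECP cows was 22.9%.

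The fold change was also taken in parts of the 12 cows. It was 1.03 (SE 0.20) on the log2 scale between the 3 ECP and the 3 CON cows later pregnant, and 1.04 (SE 0.29) between the 3 and 3 not pregnant. The libraries also fall into a class in which a higher share of the reads was mapped and one in which a lower share was, each with 3 ECP and 3 CON cows. In higher mapping libraries S100G had 6130 ± 1931 normalized counts in ECP (D160, E0952 and X156) and 2457 ± 340 in CON (1814, E0819 and X228; SD, n = 3 each). In lower mapping libraries it had 4186 ± 506 in ECP (B0646, C317 and E1010) and 2599 ± 451 in CON (B1042, E0040 and E0406; SD, n = 3 each). The wider spread of the ECP cows was seen only in the higher mapping class. There the coefficient of variation was 31.5% in ECP and 13.8% in CON, against 12.1% in ECP and 17.4% in CON in the lower mapping class. The groups did not overlap in either class, which follows from their separation over all 12 cows and adds nothing to it. The log2 fold change was 1.31 (SE 0.24) in the higher and 0.69 (SE 0.16) in the lower mapping libraries. These fold changes lay 0.63 (SE 0.31) apart, which is likewise a description and does not show that the classes differ. Both of the highest cows, E0952 and X156, were higher mapping libraries, and the part of the class in the spread among ECP cows was not tested further.

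**Figure D2:**
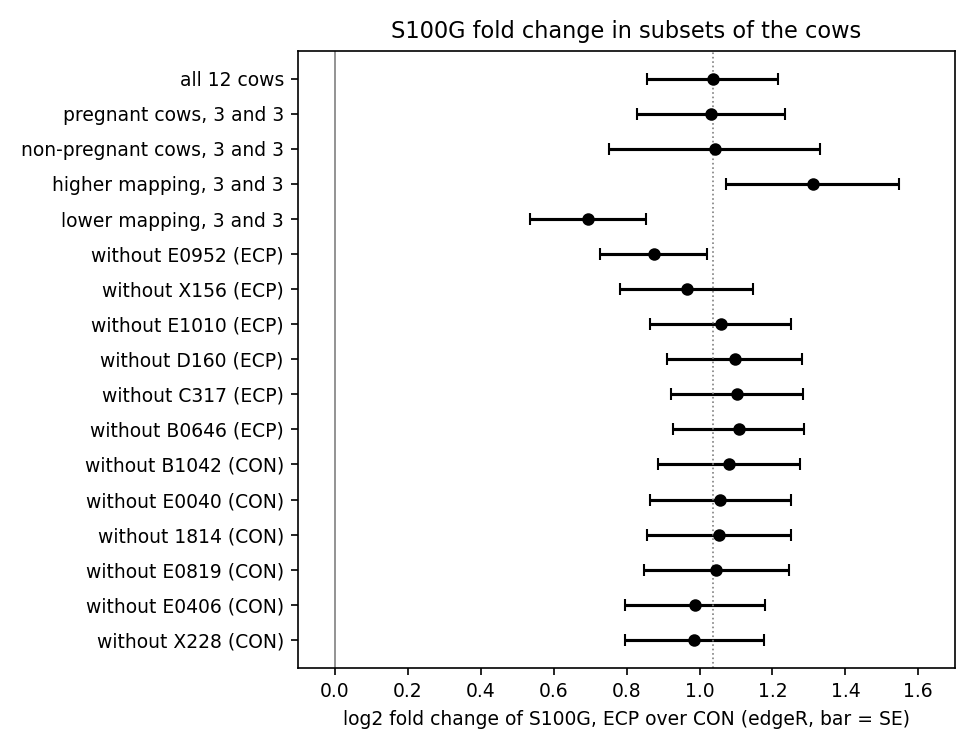
Log2 fold change of S100G, ECP over CON (horizontal axis, points with SE bars from edgeR), in all 12 cows, in pregnant, non-pregnant, higher mapping and lower mapping cows alone (3 ECP and 3 CON each), and with each cow left out. The values run from 0.69 in lower mapping libraries to 1.31 in higher mapping libraries, and from 0.87 without E0952 to 1.11 without B0646, and the dotted line marks 1.04.

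The biopsies hold a mixture of cells, and in such bulk tissue a higher share of the cells that express S100G and more transcript per cell cannot be told apart. Names for cell markers were available for few genes. Of 8 stromal markers only ASPN, the matrix protein asporin, could be matched, and its normalized counts averaged 1136 ± 295 in the 6 ECP cows against 687 ± 123 in the 6 CON cows (SD). Of 7 leukocyte markers CD244, a receptor of natural killer and other lymphoid cells, and ALOX5, the 5-lipoxygenase of leukotriene synthesis, were matched. CD244 had 19.5 ± 1.9 in ECP and 35.5 ± 10.1 in CON, and ALOX5 112 ± 16.6 in ECP against 160 ± 23.7 in CON (SD, n = 6). The symbols come from the study's own list of genes that differ between ECP and CON in these cows, so the direction of these markers is no independent evidence. None of the 9 epithelial, 5 smooth muscle, 4 endothelial and 2 erythrocyte markers had a symbol, so the tissue label could not be checked by marker, and the part of tissue composition in the S100G values was not tested. Within the ECP cows the r of S100G was 0.00 with ASPN, 0.18 with CD244 and −0.26 with ALOX5, and within the CON cows 0.63 with ASPN, 0.35 with CD244 and 0.27 with ALOX5 (n = 6 each).

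The next comparison asked whether S100G on D 6 differed between cows that were later pregnant and those that were not. Among ECP cows, the pregnant E1010, X156 and D160 had 4766, 6372 and 4090 normalized counts, and the non-pregnant E0952, C317 and B0646 had 7929, 3961 and 3832. Among CON cows, the pregnant E0040, E0819 and E0406 had 2808, 2631 and 2081, and the non-pregnant B1042, 1814 and X228 had 2908, 2675 and 2065. In both groups the values of the non-pregnant cows enclosed those of the pregnant cows. The highest and the lowest cow of each treatment group were thus both non-pregnant.

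The means were 5076 ± 1173 in pregnant and 5241 ± 2329 in non-pregnant ECP cows, and 2507 ± 379 in pregnant and 2549 ± 435 in non-pregnant CON cows (SD, n = 3 each). The ratio of pregnant to non-pregnant means was 0.969 in ECP and 0.983 in CON, well inside the SD of every one of these groups. In edgeR the log2 difference, pregnant over non-pregnant, was −0.04 in ECP (SE 0.27, adjusted p = 1.00) with a 95% interval of −0.67 to 0.59. In CON it was −0.03 (SE 0.27, adjusted p = 0.999) with an interval of −0.66 to 0.60. The interaction of treatment and pregnancy was −0.01 (SE 0.38, adjusted p = 0.997), interval −0.90 to 0.88. With treatment in the model and all 12 cows the difference was −0.04 (SE 0.18), interval −0.45 to 0.38. No difference was detectable with 3 cows against 3, and the width of the intervals does not allow the cows to be called alike.

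Exact permutation tests of the mean normalized counts, two-sided, gave p = 1 in ECP and p = 0.8 in CON, where the smallest p that 3 cows against 3 allow is 0.1. Permuting pregnancy within treatment, on mean log2 normalized counts, gave p = 0.9 for the interaction and p = 0.98 for the pooled difference (exact, 400 arrangements, smallest p 0.005). All 4 had a Benjamini-Hochberg adjusted p of 1 over the 8 exact tests of S100G. The sign of these small differences rested on the scale and on single cows. In ECP, pregnant minus non-pregnant was −165 in mean normalized counts but 0.02 in mean log2 normalized counts. In edgeR the ECP log2 difference was 0.39 (SE 0.21) without E0952, 0.10 without D160, 0.00 without E1010 and −0.24 without X156. In CON it was 0.08 without E0406, 0.08 without B1042, 0.00 without 1814 and −0.16 without X228. Over all genes edgeR called 0 (0%) of 14814 by pregnancy in ECP cows and 0 (0%) in CON cows, and an unadjusted p under 0.05 was reached by 672 genes in ECP and 604 in CON. Many genes reach that bound without any difference, so the unadjusted counts do not stand for genes tied to pregnancy. At the adjusted threshold limma voom called 0 in each, and DESeq2 called 12 (0.081%) in ECP and 13 (0.0878%) in CON.

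The third comparison set S100G beside the plasma P4 concentration that the labels give for the day of biopsy. P4 in the ECP cows was 3.05 ng/mL in E0952, 3.77 in X156, 4.09 in E1010, 4.07 in D160, 3.16 in C317 and 4.73 in B0646, in the order of falling S100G. The cow with the most S100G had the lowest P4 and the cow with the least had the highest, but C317, with nearly as little P4 as E0952, was next to last in S100G. In the CON cows P4 was 3.79 ng/mL in B1042, 3.85 in E0040, 3.57 in 1814, 3.36 in E0819, 3.86 in E0406 and 2.82 in X228, again in the order of falling S100G. There X228 had both the lowest P4 and the lowest S100G, while E0406 had the highest P4 with almost the same S100G as X228.

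Within the ECP cows Pearson's r of log2 normalized count and P4 was −0.55 (exact permutation p = 0.228) and Spearman's rho −0.60 (p = 0.242, exact). Within the CON cows r was 0.48 (exact permutation p = 0.307) and rho 0.37 (p = 0.497, exact). Adjusted over the 8 exact tests, these p-values were 0.819, 0.819, 0.819 and 0.994. Without the 2 cows farthest from the median P4, r was 0.24 in ECP (without E0952 and B0646) and −0.28 in CON (without X228 and E0819). In ECP r stayed negative when either of them alone was left out, −0.19 without E0952 and −0.39 without B0646. In CON the positive r rested on X228, since r was −0.19 without X228 alone but 0.53 without E0819 alone. With 1 cow left out r ran from −0.93 without C317 to −0.19 without E0952 in ECP, and from −0.19 without X228 to 0.97 without E0406 in CON. No r is given over all 12 cows, because the groups form separate clusters in S100G, and none within a mapping class, which holds 3 cows of a group.

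A common slope with treatment in the model was −0.24 log2 units per ng/mL (edgeR, SE 0.19, adjusted p = 0.972, 95% interval −0.66 to 0.19), and 0.04 without E0952. With a slope for each group, fitted after the opposite signs had been seen, it was −0.42 (SE 0.20) in ECP and 0.27 (SE 0.32) in CON. Their difference of −0.69 (SE 0.38) had an adjusted p of 0.822 in edgeR. Over all genes edgeR called 0 (0%) of 14814 for that difference and 0 (0%) for the common slope, for which limma voom also called 0 and DESeq2 11 (0.0743%).

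**Figure D3:**
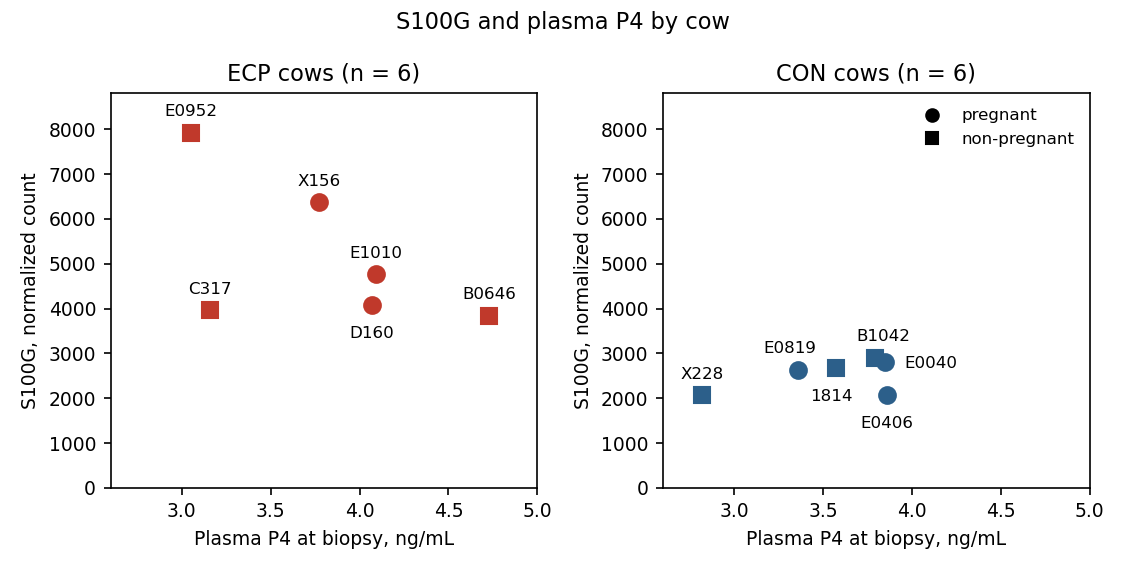
Normalized S100G count (vertical axis) against plasma P4 at biopsy in ng/mL (horizontal axis), with ECP cows in the left panel and CON cows in the right on the same scales, each cow named. Circles are cows later pregnant and squares cows not pregnant. In ECP E0952 (3.05 ng/mL, 7929) and B0646 (4.73 ng/mL, 3832) lie at the ends in P4, and C317 (3.16 ng/mL, 3961) is low in both. Pearson's r, on log2 normalized counts, was −0.55 in ECP (exact permutation p = 0.228) and 0.48 in CON (exact permutation p = 0.307).

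The last comparison asked which genes varied along with S100G among cows of the same treatment. Likeness was measured as Pearson's r of log2 normalized counts with S100G over the 6 cows of a group, and tested as a slope on S100G in edgeR. With treatment in the model, 0 (0%) of 14813 genes followed S100G at an adjusted p of at most 0.10 in edgeR, with 509 at an unadjusted p under 0.05, and limma voom also called 0. In the CON cows alone 0 (0%) were called, with 634 at an unadjusted p under 0.05. In the ECP cows alone 1 of 14813 (0.00675%) was called, with 565 at an unadjusted p under 0.05. It was ENSBTAG00000035129, a gene without a symbol that ran against S100G. Many genes reach an unadjusted p under 0.05 without any link, so these unadjusted counts do not stand for genes that follow S100G.

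ENSBTAG00000035129 had 20.0 normalized counts in E0952, 57.4 in X156, 131 in E1010, 235 in D160, 334 in C317 and 355 in B0646, exactly the reverse order of S100G. Its r with S100G was −0.99 in ECP cows (edgeR slope −3.78 log2 units per log2 unit of S100G, adjusted p = 0.0315). In the CON cows, where it ranged from 105 to 154 normalized counts, r was 0.95, the opposite direction. The call was made neither by limma voom (lowest adjusted p of any gene 0.204) nor in any of the 6 edgeR fits that left out 1 ECP cow, while edgeR with DESeq2 size factors kept it (adjusted p = 0.0327). The r itself was −0.99 without E0952 and −0.98 without E0952 and X156. DESeq2, with both treatments in the model, called 2 genes (0.0135%), this one (adjusted p = 0.0125) and ENSBTAG00000008728 (adjusted p = 0.0962, r of −0.91 in ECP and −0.80 in CON).

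Genes with a high r were found in similar numbers in each group. In ECP cows 96 genes (0.648%) had an r above 0.9 and 89 (0.601%) below −0.9, and in CON cows 110 (0.743%) and 92 (0.621%). With 6 cows a high r also arises without any link to S100G. How many genes would reach these bounds in that way was not computed, so the counts are a description. With the lower bound of 0.7, 888 genes in ECP (5.99% of all) and 860 in CON (5.81%) ran along with S100G. Of these, 25 did so in both, which is 2.82% of the ECP list and 2.91% of the CON list. Below −0.7 were 820 genes in ECP (5.54% of all) and 792 in CON (5.35%), with 59 of them in both, or 7.20% of the ECP list and 7.45% of the CON list. The sign of r was the same in both groups for 7245 of 14813 genes (48.9%), and across genes, which are not independent, the r of the ECP cows and that of the CON cows had a correlation of −0.04. The genes without a symbol that ran most alike with S100G in both groups were ENSBTAG00000007952 (r of 0.86 in ECP and 0.90 in CON) and ENSBTAG00000005547 (0.83 and 0.96). Without the 2 cows of each group farthest from its median of S100G, r was 0.08 in ECP and 0.19 in CON for ENSBTAG00000007952, and −0.04 in ECP and 0.71 in CON for ENSBTAG00000005547. Leaving out these cows also narrows the range of S100G itself. Among the CON cows left, every neighbouring step in S100G was within counting error. Such an r cannot show whether a likeness holds, and it is given here and below as a description.

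Among the 121 other genes with a symbol, CEACAM1 (0.90), RPS2 (0.85), CAMSAP1 (0.82) and GRIA3 (0.81) were among those with the highest r in ECP cows. All had adjusted p-values of 0.990 in edgeR, so none passed the test. CEACAM1, an adhesion molecule of epithelial and immune cells, had 5490 normalized counts in E0952, 4309 in X156, 3862 in E1010, 3803 in D160, 3037 in C317 and 3669 in B0646. Its CON values, from 1834 in X228 to 3003 in 1814, showed no such order (r of 0.04). PEPD, the prolidase that splits proline dipeptides, had 7993 in E0952 and 7272 in X156, and 4157 to 6381 in the other ECP cows (r of 0.76).

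The r of the named genes changed unevenly when E0952 and X156 were left out, which also narrows the range of S100G. Without these 2 cows, which lay farthest from the ECP median of S100G, r over the other 4 was 0.48 for CEACAM1, 0.53 for RPS2, 0.64 for CAMSAP1, 0.07 for GRIA3 and 0.15 for PEPD. RPS2, part of the small subunit of the ribosome, ran along with S100G within the ECP cows although its mean was lower in ECP (17464 ± 1512) than in CON (21768 ± 462; SD, n = 6 each). Ribosomal protein genes have near-identical copies in the genome, so the RPS2 counts are uncertain.

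Other genes resembled S100G in the CON cows. The highest r there belonged to GABARAP (0.97), which takes part in autophagosome formation, HSPE1 (0.88), the mitochondrial co-chaperonin of HSP60, C14H8orf59 (0.81), ASXL1 (0.80), a chromatin regulator, and DNAL1 (0.79), a light chain of axonemal dynein. GABARAP had 6368 normalized counts in B1042, 6558 in E0040, 6156 in 1814 and 6229 in E0819, against 5606 in E0406 and 5644 in X228, the pair that was also lowest in S100G. In ECP cows its r was 0.10. The lowest r belonged to PI15 (−0.97), a secreted peptidase inhibitor, UHRF1BP1 (−0.96), ACSF2 (−0.95), a mitochondrial acyl-CoA synthetase, PDXK (−0.86), the kinase of vitamin B6, and CDPF1 (−0.85). PI15 had 213 in B1042, 253 in E0040, 308 in 1814, 364 in E0819, 523 in E0406 and 606 in X228, the exact reverse of the order of S100G. Yet PI15 had a higher mean in ECP (829 ± 160) than in CON (378 ± 155; SD, n = 6 each), as S100G did, and its r in ECP cows was 0.03. Without E0406 and X228, the CON cows farthest from the median of S100G, the neighbouring steps in S100G were all within counting error. Over the CON cows left, r was 0.67 for GABARAP, 0.68 for HSPE1, 0.92 for C14H8orf59 and 0.93 for DNAL1, but −0.53 for ASXL1. On the negative side it was −0.99 for PI15, −0.33 for UHRF1BP1, −0.84 for ACSF2 and −0.95 for CDPF1, but 0.42 for PDXK. Adjusted p-values of these CON slopes lay at 0.997 or above in edgeR.

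**Figure D4:**
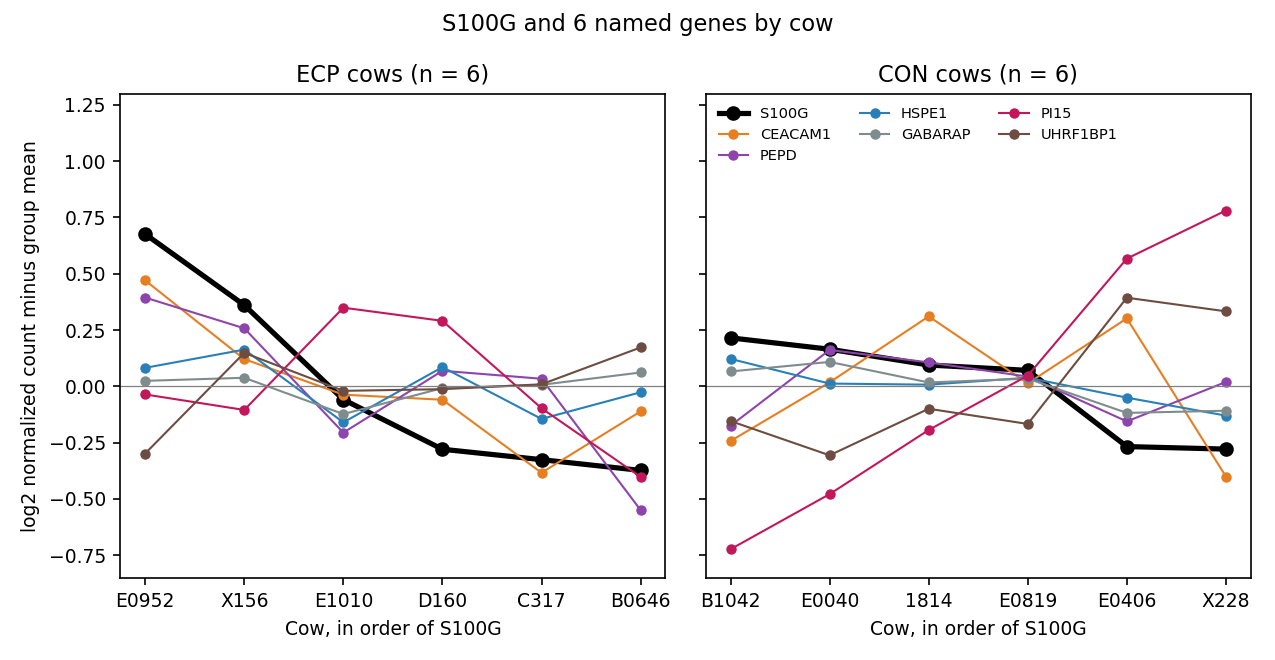
Log2 normalized count minus the group mean (vertical axis) of S100G (thick black line) and of CEACAM1, PEPD, HSPE1, GABARAP, PI15 and UHRF1BP1 in each cow, with ECP cows left and CON cows right, in the order of falling S100G. CEACAM1 (r of 0.90) and PEPD (0.76) run along with S100G in ECP cows, while in CON cows PI15 (r of −0.97) and UHRF1BP1 (−0.96) run against it.

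The genes with a symbol whose r was highest in both groups were EMC4, a subunit of the membrane protein insertion complex of the endoplasmic reticulum (0.66 in ECP and 0.72 in CON), HSPE1 (0.55 and 0.88) and CDA, the cytidine deaminase (0.48 and 0.65). PSMB4, PAQR8, FAM102A, SNTB1, PEPD and CAMSAP1 were also among the first 10. The r was also taken without the 2 cows of each group farthest from its median of S100G (E0952 and X156 in ECP, E0406 and X228 in CON). It was positive in both groups for EMC4 (0.64 in ECP and 0.30 in CON) and CDA (0.48 and 0.22), but not for most of the others. The range of S100G is narrower without these cows, so this does not show which likenesses hold. In ECP the r was then −0.44 for HSPE1, −0.37 for PSMB4, −0.72 for PAQR8, −0.49 for FAM102A and −0.53 for SNTB1, and in CON it was −0.10 for PSMB4, −0.21 for SNTB1, −0.56 for PEPD and −0.51 for CAMSAP1. EMC4 kept within a narrow band, from 936 to 1022 normalized counts in ECP and from 1101 to 1155 in CON. PAQR8, a membrane receptor for progestins and the only one of 15 steroid and vitamin D receptor and enzyme genes with a symbol, had 937 normalized counts in E0952, 354 in X156, 338 in E1010, 647 in D160, 471 in C317 and 505 in B0646, with an r of 0.33 in ECP and 0.49 in CON. Without E0952 alone the r in ECP was −0.71 for PAQR8 and −0.90 for FAM102A, so their positive r in ECP rested on that cow. None of the 20 genes of calcium entry, buffering and exit, the 16 other S100 genes and the 18 steroid-responsive uterine genes that were listed beside S100G had a symbol, and they were not analysed here.

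The lowest r over both groups with all 6 cows belonged to UHRF1BP1 (−0.59 in ECP and −0.96 in CON), AMICA1 (−0.52 and −0.52), TMEM169 (−0.52 and −0.67), SAMSN1 (−0.59 and −0.50) and SIPA1L2 (−0.67 and −0.48), followed by TET3, ARHGEF12, ADAMTSL1, CRYM and TBC1D9. Without the same 2 cows of each group, UHRF1BP1 (−0.63 and −0.33), TMEM169 (−0.15 and −0.13), SIPA1L2 (−0.79 and −0.88), ARHGEF12 (−0.73 and −0.88) and ADAMTSL1 (−0.57 and −0.83) kept a negative r in both. The r turned positive in ECP for AMICA1 (0.37), TET3 (0.67) and CRYM (0.95), and in CON for SAMSN1 (0.02), TET3 (0.25) and TBC1D9 (1.00). Without E0952 alone the r in ECP was 0.98 for CRYM, 0.28 for UHRF1BP1 and 0.17 for TET3. AMICA1 and SAMSN1 are known from leukocytes, as an adhesion molecule and a signalling adaptor, while the r of the leukocyte markers was 0.18 in ECP and 0.35 in CON for CD244 and −0.26 and 0.27 for ALOX5. SAMSN1 had 65.3, 57.4, 66.8, 67.4, 78.1 and 136 normalized counts in ECP cows in the order of falling S100G, so B0646 alone stood high, and 98.5 to 142 in CON cows. In ECP cows alone the lowest were RBM48 (−0.80), HIRIP3 (−0.75), PIAS1 (−0.69), SIPA1L2 (−0.67) and VASH2 (−0.64). Without E0952 and X156 their r was 0.08 for RBM48, 0.17 for HIRIP3, −0.72 for PIAS1, −0.79 for SIPA1L2 and −0.68 for VASH2. Over both treatments every gene named in this paragraph had an adjusted p of 1.00 in edgeR.

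The symbol genes were also counted by their own direction between treatments. Of the 66 symbol genes with a higher mean in ECP, 51 had an r above 0 with S100G within ECP cows (median r 0.23) and 25 within CON cows (median r −0.20). Of the 55 with a lower mean in ECP, 28 had an r above 0 within ECP cows (median 0.07) and 34 within CON cows (median 0.12). Over all 14813 genes 51.0% had an r above 0 in ECP and 52.5% in CON, with medians of 0.01 and 0.03. These counts are a description of genes picked by the study on the same cows, and the sign of r was the same in both groups for 55 of the 121.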

How the data were processed

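RNA-seq libraries of 12 cows (6 ECP, 6 CON) were grouped by the treatment, later pregnancy and P4 of the sample labels. The authors trimmed the reads, mapped them to the masked UMD 3.1 assembly and deposited raw counts per Ensembl gene ID. The tools listed in the submitters' processing notes are DESeq 1.12.1, HTSeq 0.5.4p2, SAMtools 0.1.18, Bowtie2 2.1.0 and CASAVA 1.8.2. According to the methods reads were kept only where they mapped uniquely, which lowers counts where a gene has near-identical copies. The sources used here do not give the strand setting of the counting.

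Genes were kept where the mean normalized count exceeded 5 and its SD. Levels are counts divided by DESeq2 size factors, with 0.5 added before log2 for r. Fits used TMM and edgeR 4.0.16 (quasi-likelihood) in R 4.3.3 over all 14814 genes (14813 for genes that follow S100G), with a threshold of 0.10. SE is the log2 change over the square root of F. Limma 3.58.1 (voom), DESeq2 1.42.0, other scalings and filters, a library class covariate and each cow left out were alternatives. Exact tests were run in SciPy 1.17.1 under Python 3.11.15, and figures drawn in matplotlib 3.10.9. The fits were also run on counts simulated with known changes, and no result given here relies on that run. P-values measure the spread between cows.

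S100G, the gene lists and the rule for named genes (highest and lowest r, 10 in both groups and 5 in each) were chosen with earlier results of these data known. ENSBTAG00000035129 and ENSBTAG00000008728 were named after their values were seen, and 1 gene that the rule names is not reported here. Symbols came from the study's gene table (123 of 135 IDs), as the RefSeq table used here held none of the Ensembl IDs. Under 80% of every list matched, so no list was tested.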

Additional observations from a re-analysis of the deposited data

How the results depend on the processing

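S100G was higher in ECP than in CON under all 12 alternatives, with log2 fold changes from 0.69 to 1.31, of which 11 moved by less than the spread between replicates. All of them reuse the cows whose separation was part of what chose the gene, so their common direction is a description and no support. The exception among the alternatives was 0.69 within lower mapping libraries. With each cow left out the fold change ran from 0.87 (without E0952) to 1.11 (without B0646). The pregnancy difference changed sign, never passing the threshold, in ECP cows with limma voom (0.0170), in CON cows with library class as a covariate (0.0367), and for the interaction with limma voom (0.0414) and upper quartile scaling (0.0226). With each cow left out it ran from −0.24 to 0.39 in ECP, from −0.16 to 0.0823 in CON, from −0.21 to 0.42 for the interaction and from −0.12 to 0.15 over both treatments, with all adjusted p-values at 0.968 or above. The P4 slope ran from −0.40 (without X228) to 0.0383 (without E0952). Without the 2 cows farthest from the median P4, r was 0.24 in ECP and −0.28 in CON, and with each cow left out it ran from −0.93 to −0.19 in ECP and from −0.19 to 0.97 in CON. The genes that follow S100G over both treatments numbered 2 with DESeq2 and 0 in every fit with a cow left out. In ECP cows they numbered 0 with limma voom, and 0 in each fit with a cow left out, and in CON cows 0 throughout. Genes without overlap, higher in ECP, numbered 44 to 48 under other scalings and without a filter, and 55 (without D160) to 97 (without X156) with a cow left out, where fewer cows have to be separated. The count passed 1.5 times 45 without B0646, E1010, X156, E0040, E0406 or X228. The causes of the other changes were not tested. No paired analysis was possible because the labels give cows no replicate numbers that pair ECP with CON. Counting error of S100G was at most 2.31%, against a coefficient of variation of 32.0% in ECP and 14.5% in CON, which holds cows, biopsies and libraries together.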
